A study of Homo sapiens with 4 samples.

Results

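Matriptase (ST14), prostasin (PRSS8) and their Kunitz-type inhibitors HAI-1 (SPINT1) and HAI-2 (SPINT2) form a protease system of the epithelial cell surface. The 4 genes were taken by symbol, with no threshold on their values, though with earlier results of these data known, and all 4 were found among the 25317 gene symbols of the deposited tables. Messenger RNA had been sequenced in MCF10A, an established non-tumour line of human mammary epithelial cells, 6 days after lentiviral delivery of Zeb1, Snail, Ovol2 or an empty vector, and cells that carried the fluorescent marker of the virus had been sorted before RNA was taken. Zeb1 and Snail are repressors that push epithelial cells into a mesenchymal state, and Ovol2 acts towards the epithelial state. Every group, the empty vector included, had been infected, had been sorted for the marker and held 1 library, so no difference below has a replicate check, no test could be made, and all values describe these 4 libraries. The species of the delivered coding sequences and the promoter that drove them are not given by the labels.

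Matriptase is a type II transmembrane serine protease, made as an inactive zymogen that is cleaved at the cell surface. Prostasin is a serine protease held to the membrane by a lipid anchor, and each of the enzymes can promote the activation of the other. HAI-1 and HAI-2 are transmembrane proteins whose Kunitz domains block matriptase and prostasin, and in epithelia the inhibitors are made together with the enzymes. In mice, matriptase and prostasin are needed for the barrier of the epidermis, and unchecked matriptase activity disturbs epithelia.

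The parts of the transcripts that code for enzyme action and for its inhibition are short, and they are printed to show what the measured messages encode. They come from GENCODE release 29 transcripts (GRCh38), 39 bases each, 5′ to 3′, with 1 codon in capitals. In the proteases it is the codon of the catalytic serine, codon 805 of 855 in ST14 and codon 238 of 343 in PRSS8. In the inhibitors it is the codon of the arginine that enters the active site of the protease from the first Kunitz domain, codon 260 of 529 in SPINT1 and codon 48 of 252 in SPINT2.
ST14: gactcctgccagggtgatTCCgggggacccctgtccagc
PRSS8: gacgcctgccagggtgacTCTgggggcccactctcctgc
SPINT1: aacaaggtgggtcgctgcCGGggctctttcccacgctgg
SPINT2: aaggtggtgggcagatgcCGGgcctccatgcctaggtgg
The protease stretches were identical at 32 of 39 bases and the inhibitor stretches at 26 of 39. The genes lie on 4 chromosomes. In GENCODE release 29 on GRCh38, which is not the hg19 build of the deposited values, ST14 spans positions 130159562 to 130210376 of chromosome 11 on the plus strand and PRSS8 positions 31131433 to 31135762 of chromosome 16 on the minus strand. SPINT1 spans positions 40844018 to 40858207 of chromosome 15 and SPINT2 positions 38244035 to 38292614 of chromosome 19, both on the plus strand. In that annotation SPINT1 shared 100 exon bases with the antisense gene SPINT1-AS1, PRSS8 shared 357 with the antisense gene AC009088.3, and SPINT2 shared 242 with AC011479.1 on its own strand. The library kit did not mark strand, so reads from the antisense overlaps cannot be assigned to 1 of the partners. Reads from the stretch shared with AC011479.1 could not be assigned by strand in any case.

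Values are FPKM, fragments scaled to transcript length and library size, which allows levels to be compared between genes within a library. Depth, estimated from the smallest steps between low values, was about 34700000 fragments for Zeb1, 31600000 for Snail, 24000000 for Ovol2 and 28800000 for the empty vector. The labels were checked by the delivered factors, with ZEB1 at 17.3 FPKM in the Zeb1 library against 0.26 in the empty vector library, SNAI1 at 99.7 in the Snail library against 0.152, and OVOL2 at 78.3 in the Ovol2 library against 6.32. The 7 mammary epithelial markers (CDH1, EPCAM, KRT8, KRT18, KRT5, KRT14 and TP63) reached at least 1 FPKM in every library except for EPCAM, at 0.683 FPKM in the Snail library. They summed to between 488 FPKM (Ovol2) and 3410 FPKM (empty vector). KRT5 was the largest part of each sum, at 215 FPKM with Ovol2 and 2930 FPKM with the empty vector. All 7 markers were lower with Ovol2 than with the empty vector, as they were with Zeb1. Of the markers of other cell types, the immune list summed to between 0.857 FPKM (Snail) and 17 FPKM (Zeb1), where CD14 was at 17 FPKM while PTPRC, the defining leukocyte marker, was at 0.0177. Of the fibroblast list, all 3 genes were below 1 FPKM in every library, and of the endothelial list only VWF in the Ovol2 library, at 1.29 FPKM, was not.

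In the empty vector library the inhibitors were more abundant than the proteases. SPINT2 was the highest of the 4 genes in every library, with 64.7 FPKM in the Zeb1, 146 in the Snail, 324 in the Ovol2 and 226 in the empty vector library. SPINT1 was at 12.8 FPKM in the Zeb1, 35.9 in the Snail, 98.4 in the Ovol2 and 51.4 in the empty vector library. Each inhibitor was thus highest with Ovol2, next highest in the empty vector library, lower with Snail and lowest with Zeb1.

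ST14 was at 7.68 FPKM in the Zeb1, 8.65 in the Snail, 45.7 in the Ovol2 and 39.7 in the empty vector library. It fell into a low pair, Zeb1 and Snail, and a high pair, Ovol2 and the empty vector. PRSS8 was at 1.75 FPKM in the Zeb1, 13 in the Snail, 15.1 in the Ovol2 and 12.1 in the empty vector library, so that the Zeb1 library alone stood low. Between SPINT2 and the other genes the gap was wide: in the empty vector library SPINT2 ranked 165 of all symbols by FPKM, SPINT1 787, ST14 1058 and PRSS8 3743, where 11359 symbols reached 1 FPKM.

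Counting error was small beside most of these differences. With the estimated depth and the longest coding transcript, the lowest value, PRSS8 in the Zeb1 library, stands for about 114 fragments, with a 95% Poisson interval of 1.44 to 2.1 FPKM. For ST14 the intervals were 7.2 to 8.19 FPKM in the Zeb1 and 8.12 to 9.22 FPKM in the Snail library, which overlap, and 44.3 to 47.2 FPKM in the Ovol2 and 38.5 to 41 FPKM in the empty vector library. For PRSS8 the interval in the Snail library, 12.1 to 14 FPKM, met that of the Ovol2 library, 14 to 16.3 FPKM, and overlapped that of the empty vector library, 11.2 to 13.1 FPKM. These intervals rest on estimated depths and cover counting error only, not the spread between cultures, which was not measured.

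**Figure D1:**
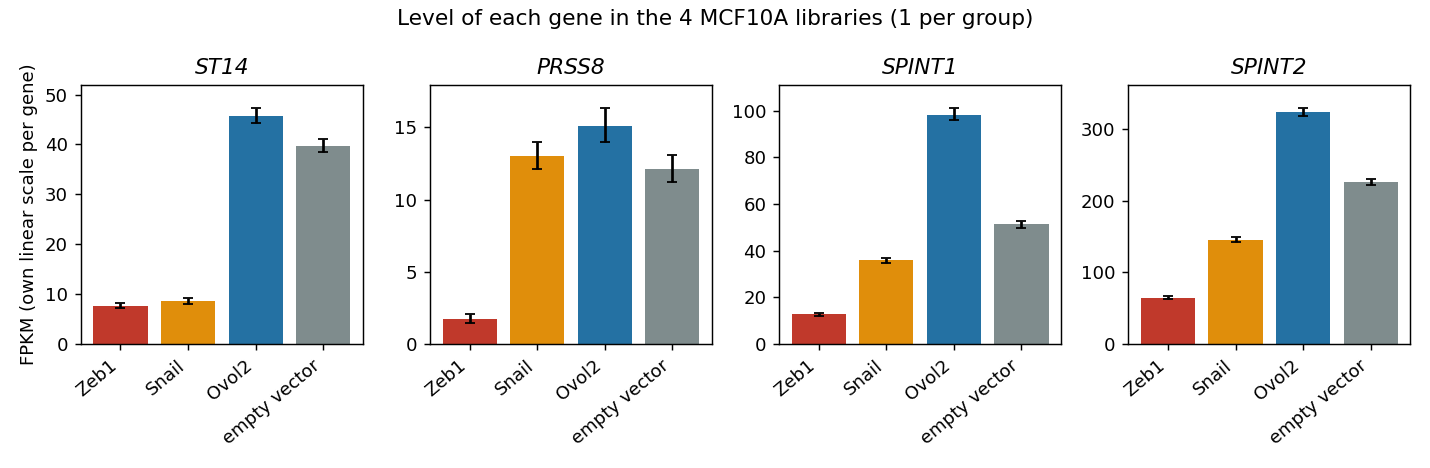
Bars give the FPKM of each gene (own linear axis from 0) in the Zeb1, Snail, Ovol2 and empty vector libraries, 1 library each, and error bars are 95% Poisson counting intervals from estimated depth. ST14 is low with Zeb1 (7.68) and Snail (8.65), PRSS8 is low with Zeb1 alone (1.75), and SPINT1 and SPINT2 are ordered Zeb1, Snail, empty vector, Ovol2.

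The comparison of Zeb1 with the empty vector asked what this repressor of epithelial genes does to the system. All 4 genes were lower. Differences are given as the log2 ratio of FPKM + 1, and a gene at 1 FPKM or more in either library was called higher or lower at a difference of 2-fold or more. By this rule 4 of 4 were lower in the Zeb1 library, where 8.49% of the 11922 genes tested were called lower and 4.52% higher. The log2 ratio was -2.25 for PRSS8, -2.23 for ST14, -1.92 for SPINT1 and -1.79 for SPINT2, a median of -2.08 beside -0.09 for all genes tested. As plain ratios, PRSS8 was 6.91-fold, ST14 5.17-fold, SPINT1 4.01-fold and SPINT2 3.5-fold lower.

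The proteases lay somewhat further down than the inhibitors, although the 4 log2 ratios spanned only 0.46. Counted from the lowest log2 ratio, PRSS8 ranked 61, ST14 67, SPINT1 144 and SPINT2 201 of 11922. Of the genes called in this comparison 34.8% were higher as deposited and 62.5% after rescaling without RMRP and RPPH1, a pair of short RNAs that held 22.1% of the summed FPKM in the Zeb1 and 24.6% in the empty vector library. All 4 genes remained lower by 2-fold or more under that rescaling. In bulk RNA, fewer cells that express a gene and less RNA per cell cannot be told apart.

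Snail against the empty vector put the same question for the other factor of the mesenchymal transition. ST14 was 4.59-fold lower in the Snail library, at 8.65 against 39.7 FPKM (log2 ratio -2.08). Counted from the lowest log2 ratio it ranked 11 of the 11644 genes tested. The other 3 genes did not pass the 2-fold rule, so that 1 of 4 was called lower, beside 1.50% of all genes tested called lower and 1.00% called higher.

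PRSS8 was at 13 FPKM in the Snail and 12.1 FPKM in the empty vector library, a log2 ratio of 0.10 beside a median of 0.12 over all genes tested, and of -0.039 after centring. SPINT1 was 1.43-fold lower (log2 ratio -0.51, rank 621 from the lowest) and SPINT2 1.55-fold lower (-0.63, rank 451). The ratios of the 4 genes spanned 2.18 on the log2 scale with Snail. Of the genes called with Snail 40.1% were higher as deposited and 23.7% after centring. EPCAM, which is also cleaved by matriptase, had a log2 ratio of -2.18 in the same comparison, close to that of ST14.

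Ovol2 against the empty vector asked what a factor of the epithelial state does in cells that are already epithelial. All 4 genes had more FPKM in the Ovol2 library as deposited (ST14 not after 1 rescaling, given below), but none was past 2-fold, so that 0 of 4 were called, beside 6.82% of 11812 genes called higher and 25.1% called lower. SPINT1 came closest, at 98.4 against 51.4 FPKM, 1.91-fold higher (log2 ratio 0.92), followed by SPINT2, 1.43-fold higher (0.52). PRSS8 was 1.25-fold (0.30) and ST14 1.15-fold (0.20) higher.

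The median log2 ratio of the 4 genes was 0.41, while that of all genes tested was -0.51. SPINT1 lay at percentile 92.2 of all log2 ratios, SPINT2 at 85.9, PRSS8 at 81.1 and ST14 at 78.1. How the libraries are scaled decides whether the rule is met here. SPINT1 was past 2-fold after centring (log2 ratio 1.09), upper quartile scaling (1.45) and length correction (1.41), and SPINT2 was past it after upper quartile scaling (1.05). With rescaling that leaves out RMRP and RPPH1, which held 40.6% of the summed FPKM in the Ovol2 and 24.6% in the empty vector library, ST14 came to -0.022. Of the genes called, 21.4% were higher as deposited and 53.0% after upper quartile scaling.

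**Figure D2:**
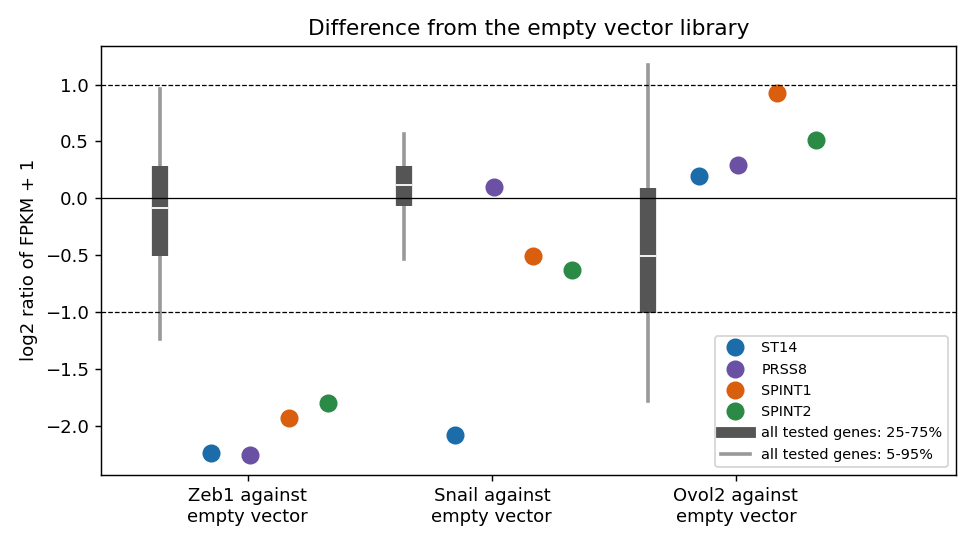
Coloured points give the log2 ratio of FPKM + 1 of each gene in the factor library over the empty vector library, dashed lines mark 2-fold, and grey bars span the middle 50% and 90% of all genes tested with the median in white. With Zeb1 all 4 genes lie between -2.25 and -1.79, with Snail ST14 alone is past 2-fold (-2.08), and with Ovol2 all lie between 0.20 and 0.92.

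Set directly against each other on their common scale, the Zeb1 and Snail libraries had nearly equal ST14, at 7.68 and 8.65 FPKM. PRSS8 differed most, at 1.75 FPKM in the Zeb1 and 13 FPKM in the Snail library, a log2 ratio of -2.35 where 8.77% of 11732 genes tested were past 2-fold in either direction. SPINT1 (-1.42) and SPINT2 (-1.16) were also lower by more than 2-fold in the Zeb1 than in the Snail library. These values share their libraries with the comparisons against the empty vector and add no independent evidence.

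Protease relative to inhibitor was taken as a plain ratio of FPKM within a library, which a single scaling factor per library leaves as it is but a correction for transcript length does not. These are ratios of transcripts, and neither protein nor activity was measured. The summed proteases stood to the summed inhibitors as 0.122 in the Zeb1, 0.119 in the Snail, 0.144 in the Ovol2 and 0.187 in the empty vector library. The summed ratio was lower with Zeb1 and Snail than with the empty vector, also after length correction, which gave 0.114 and 0.116. With Ovol2 it was lower as deposited but came to 0.188 after length correction, about that of the empty vector. SPINT2 made up most of the inhibitor sum in every library. ST14 made up most of the protease sum except in the Snail library, where PRSS8 (13 FPKM) exceeded ST14 (8.65 FPKM).

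The single ratios did not move together. ST14 over SPINT1 was 0.599 with Zeb1, 0.241 with Snail, 0.465 with Ovol2 and 0.773 with the empty vector, so the Snail library was lowest. PRSS8 over SPINT1 was 0.137 with Zeb1, 0.363 with Snail, 0.153 with Ovol2 and 0.235 with the empty vector, so the Snail library was highest. PRSS8 over SPINT2 likewise was lowest with Zeb1 (0.0271) and highest with Snail (0.0891), against 0.0535 with the empty vector. ST14 over SPINT2 was 0.119 with Zeb1, 0.0592 with Snail, 0.141 with Ovol2 and 0.176 with the empty vector. After length correction the Snail library kept its place in each of these ratios, but the Ovol2 library moved. With Ovol2, PRSS8 over SPINT1 came to 0.11, below 0.161 with Zeb1, and ST14 over SPINT2 came to 0.222, above the empty vector.

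The balance of the enzymes turned round in the Snail library alone. ST14 stood to PRSS8 as 4.39 in the Zeb1, 0.664 in the Snail, 3.03 in the Ovol2 and 3.28 in the empty vector library. After length correction the ratio of ST14 to PRSS8 was 0.623 in the Snail library and 4.76 in the Ovol2 library, there above the empty vector. As deposited, the inhibitors kept closer to each other, with SPINT2 over SPINT1 at 5.05 in the Zeb1, 4.08 in the Snail, 3.29 in the Ovol2 and 4.4 in the empty vector library. This ratio was not taken after length correction. With Ovol2 that correction moved the log2 ratio of SPINT1 against the empty vector from 0.92 to 1.41 and left that of SPINT2 at 0.52.

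**Figure D3:**
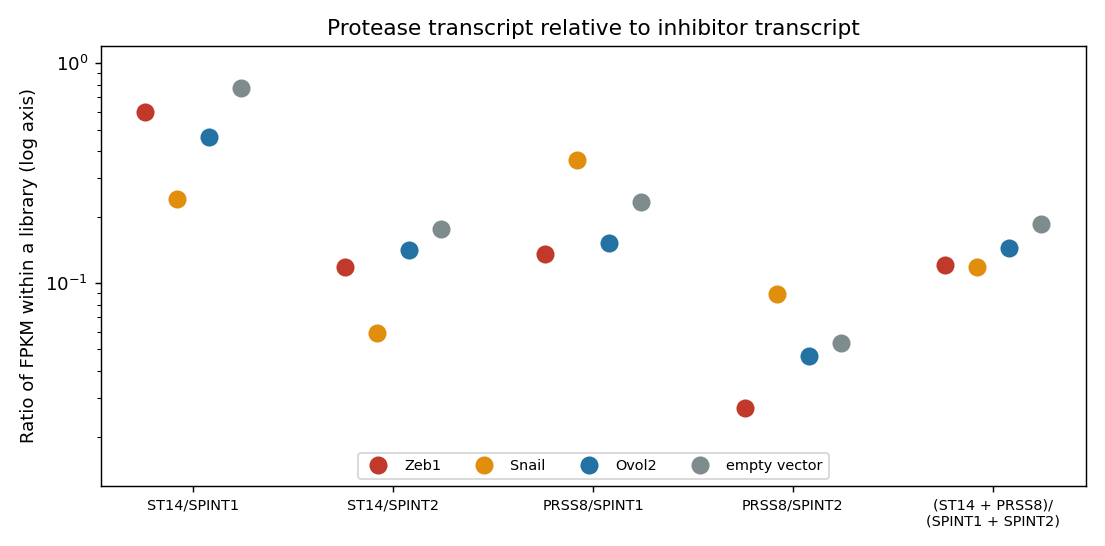
Points give the ratio of protease FPKM to inhibitor FPKM within each library on a log axis, 1 library per group. The Snail library is lowest for ST14 over SPINT1 (0.241) and highest for PRSS8 over SPINT1 (0.363), while the summed ratio lies between 0.119 and 0.187 in all 4 libraries.

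Related genes were described from lists chosen by their known roles. Of 16 other type II transmembrane serine proteases, most were near 0. With Zeb1, 2 of the 2 members at 1 FPKM or more in either library were lower (median -1.37, beside -0.09 for all genes tested), TMPRSS13 at 0.406 against 3.47 FPKM (log2 ratio -1.67) and TMPRSS11E, the epithelial protease DESC1, at 0.372 against 1.88 FPKM (-1.07). These genes passed the filter only through the empty vector library and so could not have been called higher. Centring left 1 of them lower and a filter of 5 FPKM left 0. With Snail, 0 of 2 passed the rule (median -0.33), with TMPRSS13 at -0.60 and TMPRSS11E at -0.06.

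With Ovol2, 4 of 4 kept members were higher (median 2.23, beside -0.51 for all genes tested, of which 6.82% were higher and 25.1% lower). TMPRSS11E reached 38.7 FPKM against 1.88 (log2 ratio 3.78), TMPRSS13 13.5 FPKM against 3.47 (1.70), TMPRSS4 8.33 FPKM against 0.37 (2.77) and TMPRSS11F 1.19 FPKM against 0.0169 (1.11). TMPRSS4 and TMPRSS11F passed the filter only through the Ovol2 library and so could not have been called lower. In the Ovol2 library TMPRSS11E came close to ST14 itself, at 38.7 and 45.7 FPKM. Of 7 relatives of prostasin only PRSS22 was kept in any comparison, at 3.35 FPKM in the Ovol2 library against 0.212 (1.84), and it too passed only through that library.

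Known substrates of the system and their receptors were largely lower with Zeb1. Of 16 listed, 12 were kept, 7 were lower and 0 higher, with a median log2 ratio of -1.22 beside -0.09 for all genes tested, of which 8.49% were lower and 4.52% higher. SDC1, the shed proteoglycan syndecan-1, was at 31.3 against 156 FPKM (-2.28) and EPCAM, an adhesion molecule, at 1.08 against 6.61 FPKM (-1.87). The transmembrane protein CDCP1 (-1.73), the sodium channel subunits SCNN1G (-1.57) and SCNN1A (-1.32), the protease-activated receptor PAR2 (F2RL1, -1.43) and the receptor MST1R (-1.12) were the others. SCNN1G passed the filter only through the empty vector library. PLAU, the urokinase whose proenzyme matriptase cleaves, stood at 34.3 against 33.8 FPKM.

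With Snail 2 of 12 were lower and 0 higher (median -0.26, beside 0.12 for all genes, of which 1.50% were lower and 1.00% higher), EPCAM at 0.683 against 6.61 FPKM (-2.18) and PLAU at 11.9 against 33.8 FPKM (-1.43). EPCAM passed the filter only through the empty vector library there. With Ovol2 3 of 14 were higher and 5 lower (median -0.47, beside -0.51 for all genes, of which 6.82% were higher and 25.1% lower). The higher ones were SDC1 at 376 against 156 FPKM (1.27), the channel subunit SCNN1B at 5.53 against 0.3 FPKM (2.33) and FLG, whose product profilaggrin is processed in the epidermis, at 1.63 against 0.142 FPKM (1.21). SCNN1B and FLG passed the filter only through the Ovol2 library. The lower ones were MET, the receptor of hepatocyte growth factor, at 2.67 against 37.1 FPKM (-3.38), DSG2 (-2.16), F2RL1 (-1.76), MST1R (-1.26) and SCNN1A (-1.16), of which MST1R passed only through the empty vector library. HGF itself, whose proform matriptase can cleave, was at or below 0.016 FPKM in every library.

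The other Kunitz and serpin inhibitors went the opposite way from SPINT1 and SPINT2 in several cases. With Zeb1, 4 of 6 kept members were higher and 0 lower (median 1.67, beside -0.09 for all genes, of which 4.52% were higher and 8.49% lower), namely SERPINE2, the serpin protease nexin-1 that can inhibit prostasin, at 33.1 against 1.02 FPKM (4.08), the Kunitz inhibitor TFPI at 52.1 against 9.53 FPKM (2.33), SERPINA3 (1.69) and SERPINA5 (1.65). SERPINA5 was below 1 FPKM in the empty vector library and passed only through the Zeb1 library. With Snail 0 of 6 passed the rule (median 0.52, beside 0.12), with SERPINE2 at 0.86 and TFPI at 0.76.

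With Ovol2, 2 of 6 were higher and 3 lower (median -0.89, beside -0.51 for all genes, of which 6.82% were higher and 25.1% lower). SPINK5, the inhibitor of kallikreins in the epidermis, was counted in this list although it is of the Kazal type, neither Kunitz nor serpin. It was at 8.75 against 0.195 FPKM (3.03) and passed only through the Ovol2 library. SERPINA3, at 99 against 46.3 FPKM (1.08), was the only listed Kunitz or serpin gene called higher. The lower ones were the Kunitz domain genes APLP2 (-2.14) and APP (-1.33) and TFPI (-1.97). SPINT2 stood above APP in both libraries, at 324 and 70.7 FPKM with Ovol2 and at 226 and 179 FPKM with the empty vector.

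**Figure D4:**
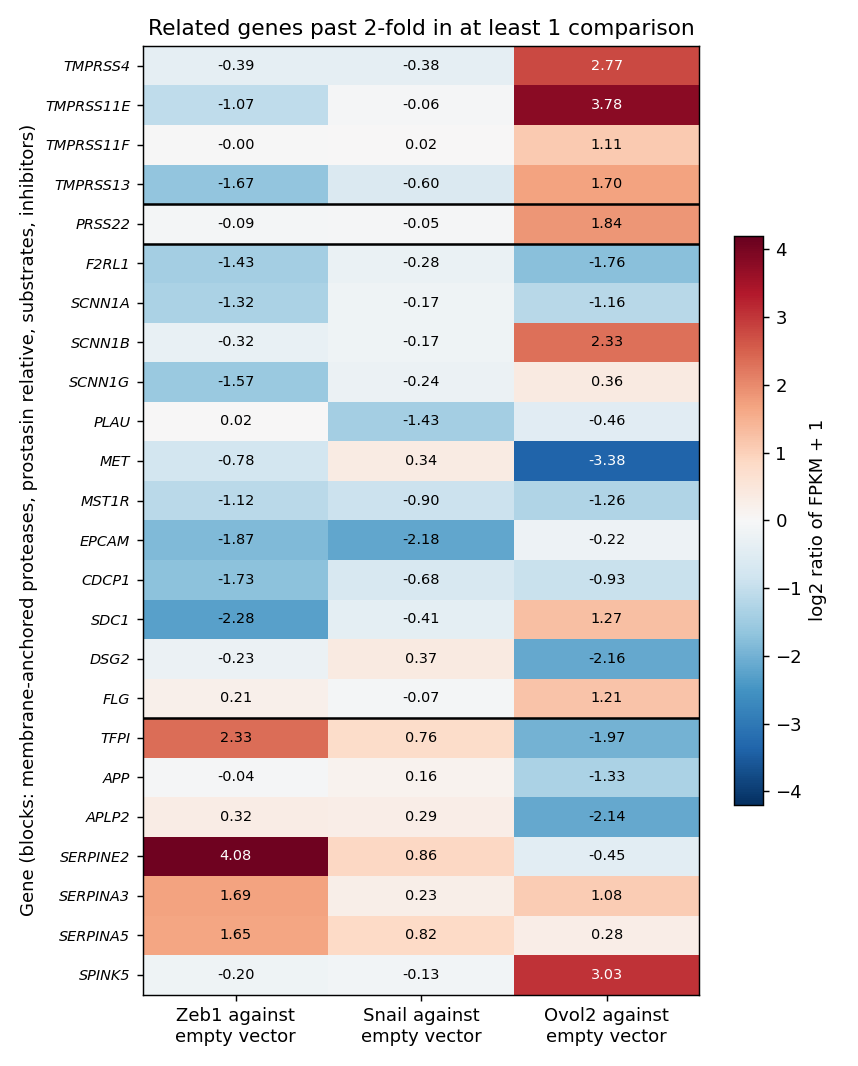
Each cell gives the log2 ratio of FPKM + 1 of a related gene in the factor library over the empty vector library, for listed genes past 2-fold in at least 1 comparison, with black lines between the lists. Substrates are mostly negative with Zeb1 (SDC1 -2.28), the membrane-anchored proteases are positive with Ovol2 (TMPRSS11E 3.78), and SERPINE2 is highest with Zeb1 (4.08).

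Genes with the most similar pattern were sought over the 4 libraries by the Euclidean distance between centred profiles of log2(FPKM + 1), among 8276 genes with at least 5 FPKM in some library. With 4 points that share 1 scale, likeness is a description. ST14 lay closest to BCAM, a laminin-binding adhesion molecule, at a distance of 0.15, and BCAM was at 0.602 FPKM with Zeb1, 0.704 with Snail, 7.08 with Ovol2 and 5.52 with the empty vector. Next came the small nucleolar RNAs SNORA38B, SNORA76A, SNORA5A and SNORA52, at distances of 0.41 to 0.51.

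PRSS8 lay closest to the desmosomal plakophilin PKP3 (distance 0.27), followed by ELMO3, the histone genes HIST1H2AJ and HIST1H2BI, and the growth factor EPGN (0.37). PKP3 was at 7 FPKM with Zeb1, 37.4 with Snail, 54.6 with Ovol2 and 35.4 with the empty vector. SPINT1 lay closest to ID1, an inhibitor of basic helix-loop-helix factors (0.17), followed by STAP2, RHOD, PPAP2C and AIM1L (0.23). SPINT2 lay closest to the protocadherin PCDH1 (0.20), followed by SNORA40, SNORA33, HMGA1 and FAM212A (0.23).

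Among the 4 genes the inhibitors were the most alike, with SPINT2 in place 23 on the list of SPINT1 and SPINT1 in place 37 on that of SPINT2, at a distance of 0.40. The proteases were the least alike, at a distance of 1.87, with PRSS8 in place 1420 on the list of ST14. From ST14, SPINT2 was in place 91 and SPINT1 in place 122, and from PRSS8 they were in places 108 and 131.

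**Figure D5:**
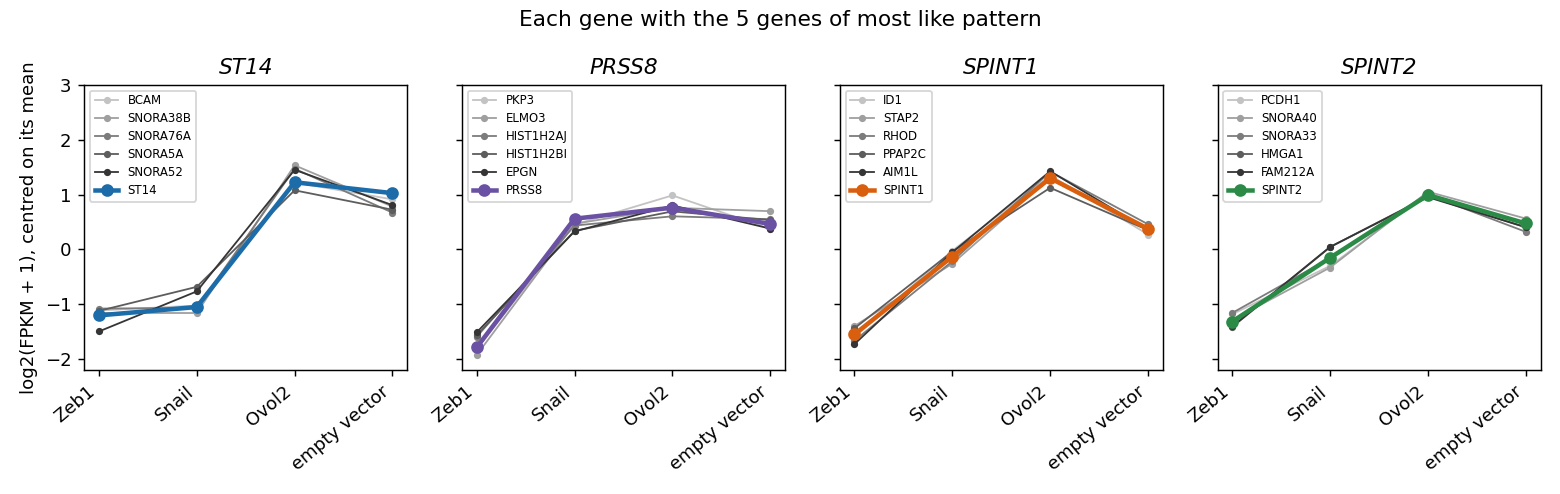
Coloured lines give log2(FPKM + 1) of each gene in the 4 libraries, centred on its own mean, and grey lines the 5 genes of most similar pattern, where lines only join the points of a gene. ST14 and its neighbours are low with both Zeb1 and Snail, PRSS8 and its neighbours with Zeb1 alone, and SPINT1 and SPINT2 share a stepwise pattern.

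Promoter windows from RefSeq (GRCh38.p14), 250 bases before to 50 after a transcript start, were at hand for SPINT1, which has a pair of starts on the plus strand of chromosome 15. Windows of the other members were not at hand, so the choice of SPINT1 does not rest on its values. As deposited, the other members, like SPINT1, were lowest with Zeb1 and highest with Ovol2. For ST14 this order depended on scaling. After centring its log2 ratio was -2.22 with Snail and -2.11 with Zeb1. Snail was also the lower of these for ST14 after upper quartile scaling, rescaling and length correction. After rescaling without RMRP and RPPH1, ST14 with Ovol2 came to -0.022. ZEB and SNAIL factors are known to bind the E-box CACCTG, read as CAGGTG on the other strand. Capitals mark this E-box. The upper window is chr15:40843798-40844097 and the lower one chr15:40844227-40844526.
SPINT1, upstream start: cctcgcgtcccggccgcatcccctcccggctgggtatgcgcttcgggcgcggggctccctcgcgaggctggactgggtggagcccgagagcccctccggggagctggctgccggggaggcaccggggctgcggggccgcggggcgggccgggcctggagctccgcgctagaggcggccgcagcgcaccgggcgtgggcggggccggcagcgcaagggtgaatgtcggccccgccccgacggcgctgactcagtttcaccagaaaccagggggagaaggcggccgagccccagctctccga
SPINT1, downstream start: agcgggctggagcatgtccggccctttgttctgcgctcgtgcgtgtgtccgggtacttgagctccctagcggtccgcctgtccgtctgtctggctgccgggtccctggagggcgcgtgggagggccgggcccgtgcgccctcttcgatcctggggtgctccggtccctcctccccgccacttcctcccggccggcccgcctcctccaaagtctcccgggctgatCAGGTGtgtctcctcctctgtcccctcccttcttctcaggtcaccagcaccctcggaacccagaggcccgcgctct
The upstream window held 0 E-boxes and the downstream window 1, which begins at position -26 from that start. Among all 35116 promoter windows listed, 20.6% held this E-box on either strand. Counted per gene, as for SPINT1 with its pair of windows, 24.1% of 27305 symbols held it in any window. The OVO motif CCGTTA, searched on both strands, was found in neither SPINT1 window, in 3.07% of all windows and in 3.8% of symbols. The E-box and the OVO motif do not overlap in their letters, and a match is a description of these letters and not of binding.

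The comparisons in the authors' deposited tables gave adjusted p-values of 2.99e-12 for PRSS8, 8.41e-10 for ST14, 1.03e-08 for SPINT1 and 0.00544 for SPINT2 with Zeb1. SPINT2 had 0.113 with Snail and 0.276 with Ovol2 in the authors' deposited tables, while PRSS8 with Snail, at a deposited fold of 1.08, had 0.000116. The authors' deposited tables set 1 library against 1 library, and 77.9% of 25360 rows with Zeb1, 81.0% with Snail and 86.3% with Ovol2 lay below 0.05, so these values do not measure the spread between cultures.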

How the data were processed

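The authors deposited 3 tables, each with an FPKM value per gene for the empty vector library and for 1 factor library. Tools credited in the submitters' processing notes are TopHat, Cufflinks and Cuffdiff, with the hg19 build, and the FPKM unit is inferred from them, since no header states it. Versions and annotation are not stated. Per the file headers, the deposited tables also hold a signed fold and a Benjamini-Hochberg adjusted p-value, which decided no call. Rows with the same symbol (43 extra rows) were added up, and the 3 tables carry 1 common set of empty vector values.

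Log2 ratios with a pseudocount of 1 FPKM were computed in Python 3.11.15 for genes that reached 1 FPKM on either side. The call rule was tested on simulated data with 200 changed genes, counting error only and equal depth in both libraries. That simulation cannot show how spread between cultures or differences of scaling affect the calls. Alternatives were pseudocounts of 0.1 and 0, filters of 5 FPKM and none, centring on genes at 5 FPKM or more, upper quartile scaling, rescaling without RMRP and RPPH1, and length correction in 20 bins. Fragments per gene assume the longest coding transcript of GENCODE release 29. Named genes were the 4 members, the 5 nearest patterns of each, listed genes past 2-fold in any comparison and the delivered factors. PLAU with Zeb1, HGF, and the genomic neighbours were named, and ranks and pairings of factor libraries added, after the values were seen. The members and lists were chosen with earlier results of these data known. A listed inhibitor is not reported here and was left out of its list.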

Additional observations from a re-analysis of the deposited data

How the results depend on the processing

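The 4 lower calls with Zeb1 and the lower call of ST14 with Snail held under every alternative run, namely both pseudocounts, both filters, centring, upper quartile scaling, rescaling without RMRP and RPPH1, and length correction. With Ovol2 the number of members called higher was 0 as deposited, 1 after centring (SPINT1 at 1.09), 2 after upper quartile scaling (SPINT1 at 1.45, SPINT2 at 1.05) and 1 after length correction (SPINT1 at 1.41). The near-zero ratio of PRSS8 with Snail came to -0.039 after centring and -0.035 after upper quartile scaling, and that of ST14 with Ovol2 to -0.022 after rescaling. A pseudocount of 1 on each gene gave a log2 protease to inhibitor ratio of -2.80 for Zeb1, against -3.04 without it, and of -2.96 for Snail, against -3.07. Length correction, added for this ratio after seeing the data, gave -2.41 for Ovol2, against -2.80 as deposited and -2.42 for the empty vector. The median of all genes moved by 0.12 (Zeb1), -0.14 (Snail) and 0.17 (Ovol2) with centring, by 0.09, -0.12 and 0.41 with upper quartile scaling, by 0.29, -0.03 and -0.30 with rescaling, and by 0.09, -0.12 and 0.51 with length correction. With Zeb1, 1441 genes were higher with rescaling against 539 as deposited, and 653 lower with length correction against 1012. With Snail, 324 genes were lower with rescaling against 175, and 78 higher with centring against 117. With Ovol2, 1637 genes were higher and 1454 lower after upper quartile scaling, against 806 and 2965 as deposited, while 5002 were lower with rescaling and 867 with length correction. The share of called genes that were higher ran to 48.1% (centring) and 49.4% (length correction) with Zeb1, 27.3% (upper quartile) with Snail, and 32.8% (centring) and 54.8% (length correction) with Ovol2. The list counts were rerun only with the filter of 5 FPKM and with centring. They were not checked against upper quartile scaling, rescaling or length correction, which moved the Ovol2 calls over all genes. Of the 48 list counts rerun, 44 stayed within 1.5 times, but most of these were counts of 0 that stayed 0. With a filter of 5 FPKM, the type II proteases lower with Zeb1 came to 0 and the prostasin relatives higher with Ovol2 to 0, and with centring those proteases came to 1 and substrates higher with Zeb1 to 1. The cause of these shifts was not tested. No paired analysis was possible because each group held 1 library, and for the same reason no library could be left out.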

Other observations

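The protein-coding neighbours of the members in GENCODE release 29 were read off for the same libraries. RHOV, a small GTPase gene next to SPINT1, was at 1.22 FPKM with Zeb1, 2.5 with Snail, 35.1 with Ovol2 and 9.32 with the empty vector (log2 ratios -2.21, -1.56 and 1.81), so its libraries stood in the same order as those of SPINT1. SPINT2, on another chromosome, and ID1 had this order too, and the share of all genes with it was not counted. APLP2, next to ST14, was at 123 FPKM with Zeb1, 120 with Snail, 21.6 with Ovol2 and 98.5 with the empty vector, and was low with Ovol2, where ST14 was high. ZBTB44, on the other side of ST14, had log2 ratios of 0.53, 0.39 and -1.45, and KAT8, next to PRSS8, of 0.14, 0.09 and -0.22. The remaining neighbours, PRSS36, PPP1R14D, DPF1 and PPP1R14A, were below 1 FPKM in all 4 libraries.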
